A study of Mus musculus with 18 samples.

Results

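The genes described here are 37 genes of macrophages and other leukocytes, chosen by name and followed in primary muscle cultures of the mouse. Of the 37, 35 had a probe on the array, among 17711 genes with a probe in all. Csf1r and Cd68 had none in the probe annotation used here and were not analysed. One probe stood for each gene, the one with the highest mean bead signal over the 18 arrays, and a gene was counted as detected where its detection p-value was under 0.05 on at least 4 arrays. By this measure 26 of the 35 genes were detected, 20 of them on all 18 arrays.

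The cultures were grown from limb muscles of C57BL/10 mice aged 3 to 5 days, seeded as myoblasts and harvested on day 6, after 48 hours in differentiation medium. The study knocked down dystrophin by RNA interference to ask which transcripts follow its loss in myotubes. Of the 18 cultures, 7 received an siRNA against dystrophin and 7 an siRNA against GL2, the firefly luciferase, which has no target in mouse cells, both on days 2 and 4. The other 4 were untreated, so that transfection and siRNA cannot be told apart in a comparison with them. Cells of different mice were mixed before plating on each of several occasions, so cultures of an occasion share their cells. The labels do not give the occasion of an array, and the p-values treat the arrays as independent. Dmd, the gene of dystrophin, lay between 8.07 and 8.52 on a log2 scale with the dystrophin siRNA, between 10.03 and 10.51 with the GL2 siRNA and between 10.05 and 10.32 in untreated cultures for its brightest probe. A second probe, also detected on all arrays, overlapped between both siRNAs (5.91 to 7.00, 6.68 to 7.57 and 7.10 to 7.36 in the same order), and its difference was called between both siRNAs (-0.58, adjusted p = 0.0392) and not against untreated cultures (-0.67, adjusted p = 0.111). Each array detected 17551 to 18530 of 46632 probes, and arrays of one group correlated at 0.977 to 0.993.

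Macrophages are resident in skeletal muscle and are carried into primary cultures together with fibroblasts and endothelial cells. They are known there for the clearance of debris and for signals to muscle precursors. Immune receptors on their surface signal through small partner chains such as the products of Fcer1g and Tyrobp, and many genes of the lineage are switched on by PU.1, the transcription factor encoded by Spi1. In RNA of a whole culture, fewer macrophages and less RNA per macrophage cannot be told apart.

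PU.1 binds purine-rich sites, and the letters GAGGAAG, a common core of them, were searched on both strands in the 250 bases before the start of each gene in RefSeq's annotation of GRCm38.p6. A window was held for 27 of the 37 genes, and 7 of these (25.9%) held the letters, against 3244 of 27025 genes in all (12%). Of the 19 detected genes with a window, 6 held them. The windows below belong to genes whose levels are described in detail or that take part in receptor signalling and complement, and show the matches, all on the opposite strand and so read as CTTCCTC, in capitals. A match describes the letters and is not evidence of binding.
Fcgr3, chr1:171059395-171059470, minus strand: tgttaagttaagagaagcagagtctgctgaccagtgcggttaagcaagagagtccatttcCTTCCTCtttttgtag
Mrc1, chr2:14229318-14229413, plus strand: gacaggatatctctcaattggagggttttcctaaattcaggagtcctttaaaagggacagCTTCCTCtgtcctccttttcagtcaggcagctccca
Trem2, chr17:48346300-48346400, plus strand: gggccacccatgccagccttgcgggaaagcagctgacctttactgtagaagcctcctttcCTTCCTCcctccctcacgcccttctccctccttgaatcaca
C1qc, chr4:136893042-136893164, minus strand: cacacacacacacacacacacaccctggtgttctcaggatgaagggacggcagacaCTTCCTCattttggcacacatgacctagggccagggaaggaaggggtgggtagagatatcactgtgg

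Genes typical of macrophages were readily detected in these cultures. Emr1, which encodes the surface antigen F4/80 and is now named Adgre1, Mrc1, the mannose receptor, the 3 complement C1q chains C1qa, C1qb and C1qc, Lyz2, a lysozyme, Trem2 and its partner Tyrobp, and Cx3cr1, the receptor of fractalkine, were detected on all 18 arrays. The detected genes also held the Fc receptors Fcgr1, Fcgr2b and Fcgr3, the partner chain Fcer1g, the lectins Clec4n and Clec7a, and the lipopolysaccharide co-receptor Cd14. Further ones were the protease gene Ctss, the lysosomal protein Laptm5, the oxidase subunits Cyba and Cybb, and the actin-associated Coro1a and Aif1. The remaining detected genes were the tetraspanin Cd53, and Lst1, Spi1 and Cd300c. Clec7a was detected on 8 arrays, 1 of them untreated.

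Detection did not extend to every leukocyte gene. Ptprc, which encodes the pan-leukocyte antigen CD45, was at background on every array with each of its 4 probes. The same held for Cd163, a haemoglobin scavenger receptor, Lyz1, Cd52, the oxidase subunit Ncf1, the chemokine receptor Ccr2 and the cytokines Il1b and Tnf, which makes 8 genes detected on no array. The scavenger receptor gene Msr1 was detected on 1 array. No fold is given for these 9 genes. The probes' own performance was not tested, so a signal at background sets no limit on the RNA.

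Cd300c, which encodes a receptor of the CD300 family on myeloid cells, was the 1 gene of the list that passed the test in any comparison, and it passed in all 3. In the untreated cultures its log2 levels were 6.20, 6.71, 6.67 and 6.71. With the GL2 siRNA they were 7.79, 8.33, 8.77, 8.29, 8.39, 7.99 and 8.30 for replicates 1 to 7. With the dystrophin siRNA they were 4.93, 5.54, 6.02, 5.88, 5.70, 4.63 and 5.44. The 3 groups did not overlap, with the GL2 arrays highest and the dystrophin arrays lowest. The gene was detected on all untreated and GL2 arrays and on 5 of the 7 dystrophin arrays, replicates 1 and 6 being at background.

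Against untreated cultures, Cd300c fell by 1.12 ± 0.23 (SE, log2) with the dystrophin siRNA, a 2.18-fold lower level (limma, adjusted p = 0.017). With the GL2 siRNA it rose by 1.69 ± 0.23, or 3.23-fold (adjusted p = 5.3e-04). Between both siRNAs it was lower by 2.81 ± 0.19 with the dystrophin siRNA (adjusted p = 1.46e-08). An exact two-sided permutation test over arrays, run for this gene after its values were seen, gave p = 0.00606, 0.00303 and 0.000583 in the same order. With groups that do not overlap, these p-values lie at or near the smallest possible. The test treats arrays as independent and adds no separate support. The fall against untreated cultures lost its call when untreated replicate 2, 3 or 4 was left out (adjusted p between 0.071 and 0.076), when only the compared groups were fitted (adjusted p = 0.0666), and with the replicate number as a block (adjusted p = 0.142). The rise with the GL2 siRNA also missed the threshold under that block (adjusted p = 0.0571). Against untreated cultures that block used only arrays numbered 1 to 4, and the numbers are not known to pair siRNA with untreated arrays. The lost calls can therefore not be read as an effect of pairing. Without background correction the 3 differences were smaller, at -0.46, 1.1 and -1.56, and all still passed. Cd300c was measured by 1 probe, and whether it reads related genes of the family was not tested.

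One gene of the list called in each comparison compares with 423 of 46632 probes (0.907%) for the dystrophin siRNA against untreated, 342 (0.733%) for the GL2 siRNA against untreated and 1752 (3.76%) between both siRNAs. None of the other 25 detected genes passed. At an unadjusted p under 0.05 they numbered 5, 2 and 0, and their smallest adjusted p were 0.441, 0.348 and 0.70. The share of all probes at that unadjusted level is not given here.

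Although none passed, the 25 genes leaned to the same side against untreated cultures. With the dystrophin siRNA their median difference was -0.53 on the log2 scale and 24 of the 25 lay below 0, where the 19437 detected probes had a median of 0.02 and 46.3% of them below 0. With the GL2 siRNA the median was -0.45, again with 24 of 25 below 0, against 0.02 and 47.3%. Both comparisons use the same 4 untreated arrays. Clec7a, which encodes the beta-glucan receptor Dectin-1, was the gene above 0, but it was detected on 1 of 4 untreated arrays and no size is given. The medians moved with the sets, to -0.29 and -0.22 for the dystrophin and GL2 siRNA without set 4 and to -0.87 and -0.76 without set 3.

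With the dystrophin siRNA, Mrc1, Cx3cr1, Emr1 and Cd14 had the lowest values of the 25 genes against untreated cultures. The difference of Mrc1 was -0.996 ± 0.42 with the dystrophin siRNA and -0.99 ± 0.42 with the GL2 siRNA (SE, adjusted p = 0.441 and 0.378). That of Cx3cr1 was -0.97 ± 0.41 and -0.82 ± 0.41, that of Emr1 -0.81 ± 0.43 and -0.68 ± 0.43, and that of Cd14 -0.77 ± 0.34 and -0.83 ± 0.34. Nearer to 0, Clec4n lay at -0.15 ± 0.35 and -0.50 ± 0.35, and Cyba at -0.11 ± 0.13 and -0.23 ± 0.13. The C1q chains had differences of -0.65, -0.54 and -0.55 for C1qa, C1qb and C1qc with the dystrophin siRNA and of -0.62, -0.42 and -0.50 with the GL2 siRNA. The brightest of 3 Coro1a probes gave -0.62 with the dystrophin siRNA and both others -0.42 and -0.53, all on the same side.

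**Figure D1:**
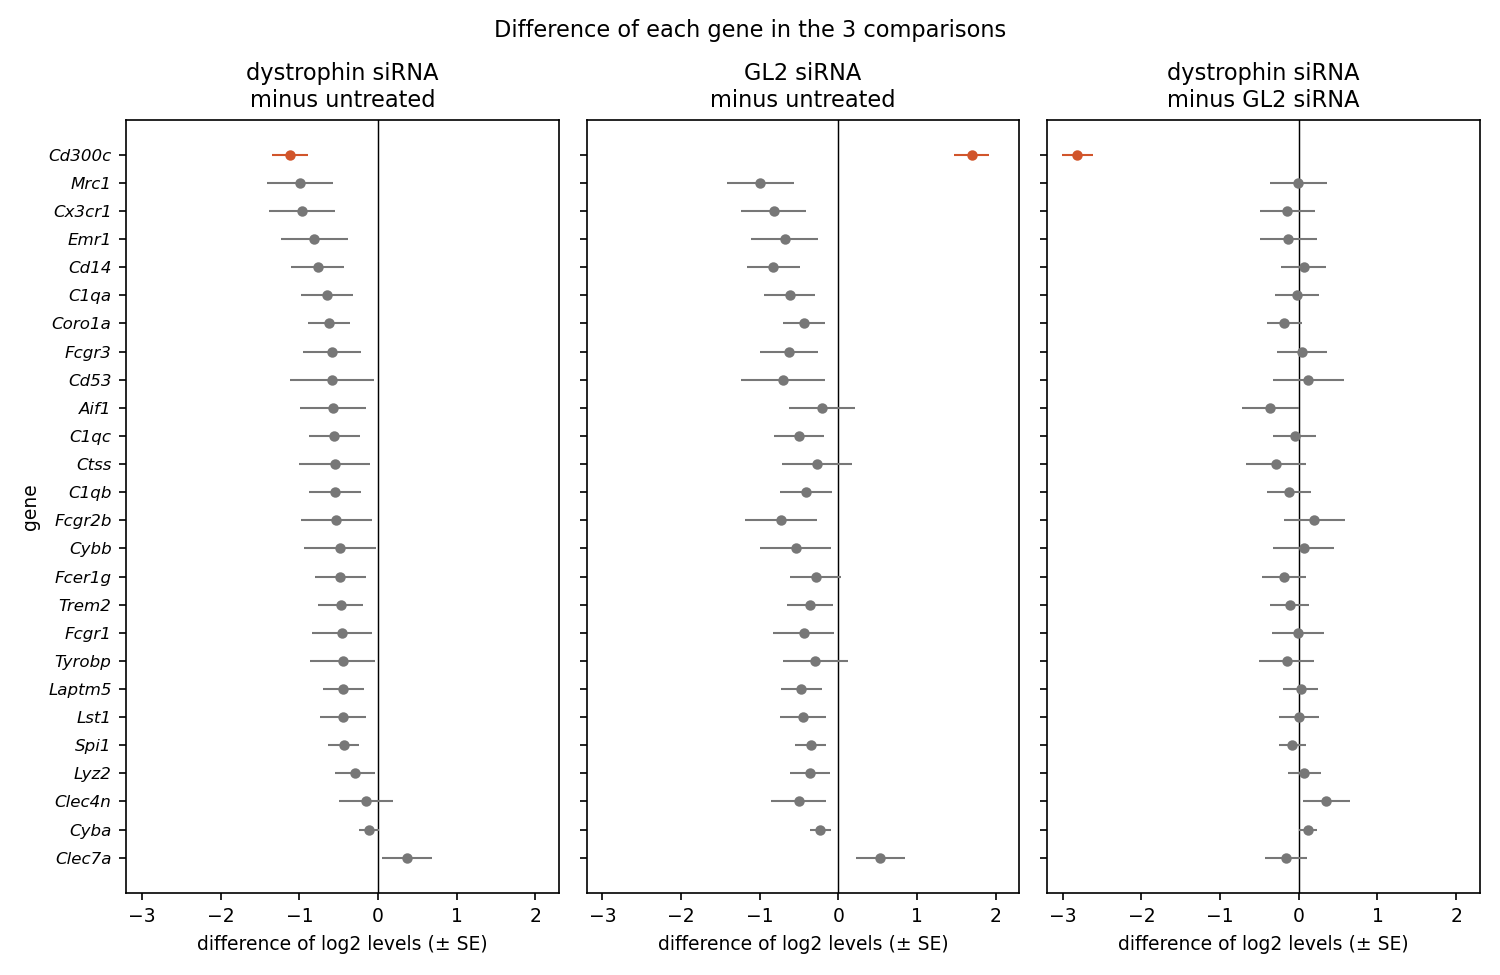
Difference of log2 levels (x axis) for each of the 26 detected genes (y axis) in the 3 comparisons, with bars of 1 SE and genes past the threshold in orange. Cd300c alone is orange in all 3 panels, while 24 of the other 25 genes lie left of 0 against untreated cultures and all lie between -0.36 and 0.35 between both siRNAs.

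Between both siRNAs none of the 25 genes passed. Their median difference was -0.03, with 15 below 0, where all detected probes had a median of 0.01. Their lowest value was -0.36 ± 0.36 for Aif1, an actin-binding protein of activated macrophages, and their highest 0.35 ± 0.30 for Clec4n, the lectin Dectin-2. The 95% intervals of these differences extended a median of 0.60 to either side and reached from -1.11 to 1.07 at their widest, so differences of that size in a single gene lay within them. Same-numbered arrays of both siRNAs were taken as pairs, which the labels do not state. With the number as a block the intervals extended a median of 0.20 to either side and reached from -0.60 to 0.59. The smallest adjusted p was then 0.107, for Aif1, and 4 of the 25 genes had an unadjusted p under 0.05. Aif1 and Coro1a were lower with the dystrophin siRNA in all 7 pairs, with differences of -0.85 to -0.03 and of -0.35 to -0.06. How many of all probes had such a p or lay lower in all pairs is not given here.

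The arrays varied far more among siRNA-treated than among untreated cultures. The mean log2 level of the 25 genes lay between 8.93 and 9.13 on the 4 untreated arrays, a range of 0.19, and spanned a range of 1.53 on the 14 arrays with siRNA. The median gene had a range of 0.38 over the untreated arrays and of 1.73 over the siRNA arrays. Over all detected probes the median ranges were 0.38 and 0.84.

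This spread went with the replicate number in both siRNA groups. The mean of the 25 genes on the arrays with the GL2 siRNA was 8.75, 8.36, 8.22, 9.40, 9.42, 7.97 and 7.98 for numbers 1 to 7. With the dystrophin siRNA it was 8.74, 8.23, 8.21, 9.35, 9.41, 8.0 and 7.89. Arrays of the same number and different siRNA differed by 0.008 to 0.131. In both groups numbers 4 and 5 were highest and numbers 6 and 7 lowest, and the range of 1.53 over these arrays exceeded every difference within a number.

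To describe this, arrays were joined into 4 sets by the correlation of their deviations from the group means over detected probes other than the 37 genes. Set 1 held array 1 of each group, set 2 untreated 2 with siRNA arrays 2 and 3, set 3 untreated 3 with siRNA arrays 4 and 5, and set 4 untreated 4 with siRNA arrays 6 and 7. Correlations within a set had a median of 0.329 and went down to 0.058, the lowest being one of an untreated array, and the sets are not known to be the occasions of culture. Each set holds 1 untreated array. Other myeloid genes took part in the clustering, so the sets are not independent of the list's values.

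**Figure D2:**
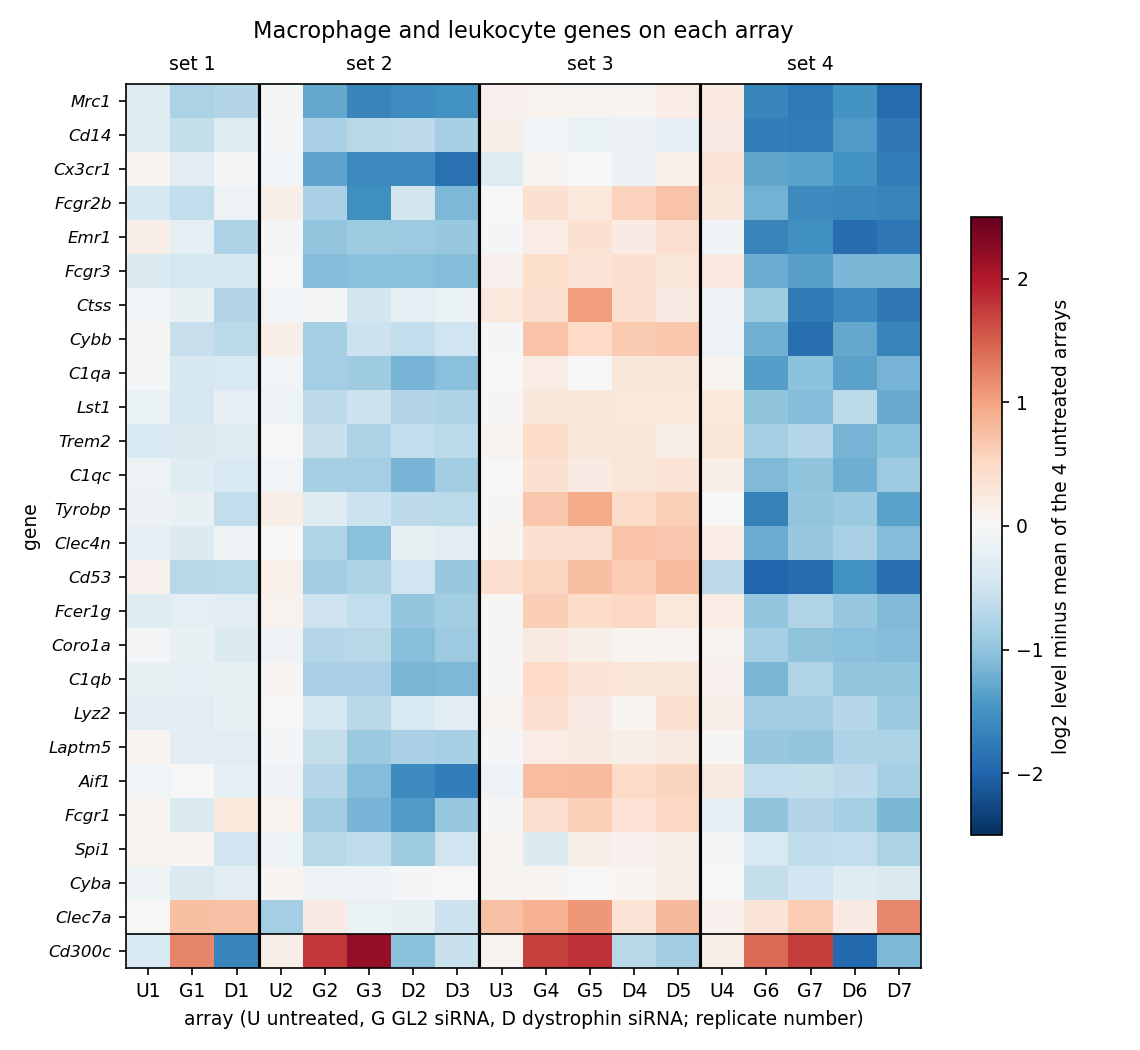
Log2 level of each detected gene (rows) minus the mean of the 4 untreated arrays, for the 18 arrays (columns) ordered by set, with U untreated, G GL2 siRNA and D dystrophin siRNA. Columns of both siRNAs are alike within a set, mostly blue in sets 2 and 4 and pale red in set 3, while the bottom row, Cd300c, is red with the GL2 siRNA and blue with the dystrophin siRNA in every set.

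In set 4 the siRNA arrays lay lower than their untreated array by 1.17 on the log2 scale for the mean of the 25 genes (a difference of -1.17). In set 2 this difference was -0.76, in set 1 -0.19 and in set 3 0.27. Genes lower with siRNA numbered 19, 24, 4 and 24 of 25 in sets 1 to 4, and those lower by more than 1 numbered 0, 7, 0 and 19. Of all detected probes, 49.6%, 48.5%, 48.9% and 48.2% were lower, and 1.30%, 0.746%, 0.818% and 1.93% were lower by more than 1. Ctss, Cd53 and Cybb count among the genes lower by more than 1 in set 4, but were at background on all its siRNA arrays. The size of their difference there is uncertain. All siRNA arrays of set 4 lay below all 4 untreated arrays in 24 of the 25 genes, and those of set 2 in 20. In set 3 all siRNA arrays lay above all untreated arrays in 12 genes and below them in none. The share of all detected probes without such overlap is not given here, so these counts have no background to be read against. The difference between the dystrophin and GL2 siRNA within a set was -0.01, -0.07, -0.04 and -0.03.

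**Figure D3:**
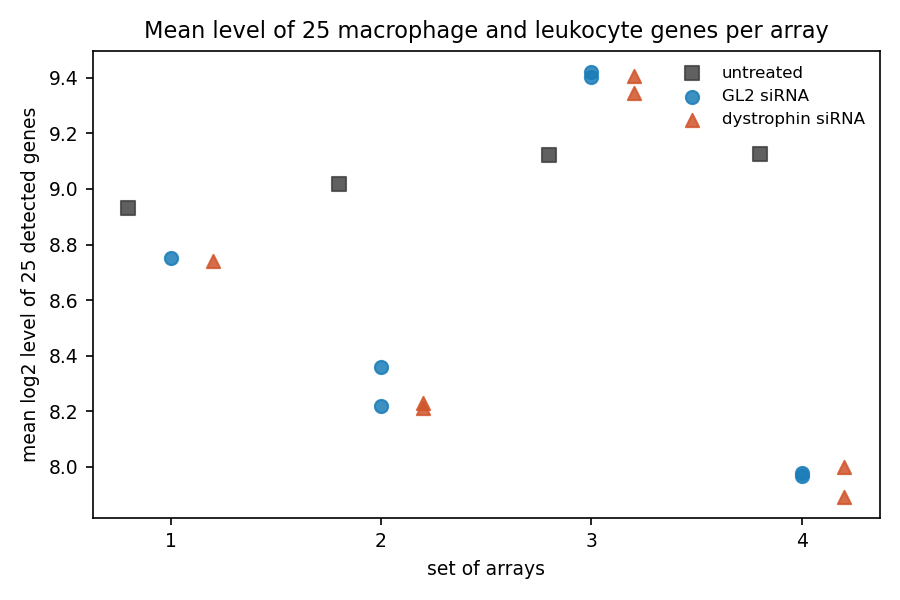
Mean log2 level of the 25 detected genes other than Cd300c (y axis) on each of the 18 arrays, by set (x axis) and group. Untreated arrays stay between 8.93 and 9.13, and siRNA arrays lie between 7.89 and 8.0 in set 4 and between 9.35 and 9.42 in set 3 with either siRNA.

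Fcgr3, an activating receptor for IgG, had the smallest p of the list in the test between sets given further on and is described by array for that reason. Untreated cultures had log2 levels of 9.10, 9.42, 9.54 and 9.68. With the GL2 siRNA the levels were 8.98, 8.34, 8.39, 9.87, 9.75, 8.20 and 8.08, and with the dystrophin siRNA 9.04, 8.38, 8.36, 9.84, 9.73, 8.29 and 8.28. The siRNA arrays of sets 2 and 4 lay below every untreated array and those of set 3 above every one. Against the untreated array of its set, Fcgr3 was 2.07-fold lower in set 2 and 2.77-fold lower in set 4, and 1.20-fold higher in set 3.

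Mrc1 had log2 levels of 9.94, 10.17, 10.34 and 10.47 in untreated cultures. The levels were 9.44, 8.96, 8.59, 10.32, 10.31, 8.61 and 8.47 with the GL2 siRNA and 9.50, 8.67, 8.72, 10.30, 10.42, 8.73 and 8.30 with the dystrophin siRNA. The siRNA arrays of set 3 lay within the range of the untreated arrays and all others below it. Mrc1 was 1.38-fold lower with siRNA in set 1, 2.71-fold in set 2 and 3.86-fold in set 4, and differed by -0.01 on the log2 scale in set 3. With the sets as a block, Mrc1 passed the threshold against untreated cultures, lower with the dystrophin siRNA (adjusted p = 0.0498) and with the GL2 siRNA (adjusted p = 0.0424), where 1.5% and 2.09% of all probes were called. With the sets as a random block it did not pass, the smallest adjusted p of the 25 genes being 0.243 and 0.195.

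Cyba, given by array because its probe had the highest mean bead signal, encodes the membrane anchor of the phagocyte oxidase, which many other cell types express too. It had the smallest range of the 25 genes over the siRNA arrays. Its log2 levels were 12.63, 12.78, 12.80 and 12.71 in untreated cultures. With the GL2 siRNA they were 12.37, 12.61, 12.61, 12.80, 12.74, 12.14 and 12.25, and with the dystrophin siRNA 12.48, 12.67, 12.72, 12.78, 12.87, 12.43 and 12.38. The siRNA arrays of sets 1 and 4 lay below every untreated array. Its difference between siRNA and untreated was -0.41 in set 4 and 0.00 in set 3.

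**Figure D4:**
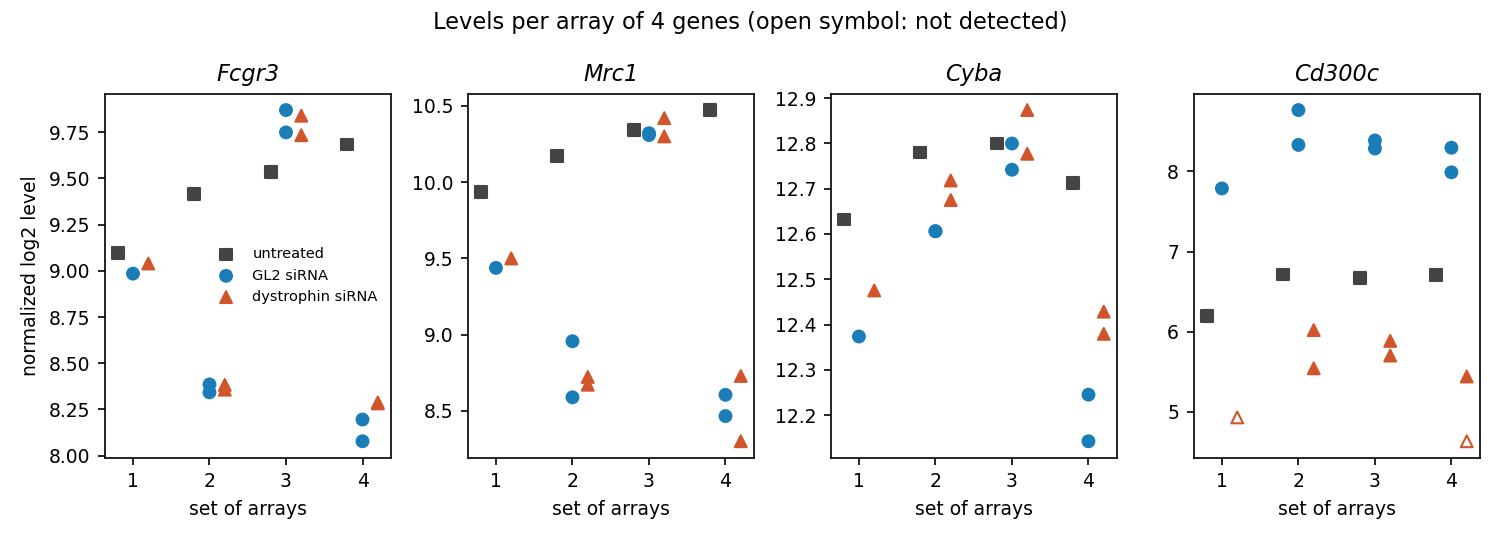
Normalized log2 level (y axis, a scale of its own for each gene) of Fcgr3, Mrc1, Cyba and Cd300c on each of the 18 arrays by set (x axis) and group, with open symbols where the gene was not detected. For Fcgr3 and Mrc1 both siRNAs lie together and move between sets, whereas for Cd300c the GL2 arrays (7.79 to 8.77) lie above and the dystrophin arrays (4.63 to 6.02) below the untreated arrays in every set.

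Of the other receptors, Cd14, Cx3cr1, Fcgr2b and Emr1 were lowest in set 4, while Fcgr1 was lowest in set 2, 2.29-fold, against 1.66-fold in set 4. Cd14 was 3.65-fold lower with siRNA in set 4, Cx3cr1 3.48-fold, Fcgr2b, the inhibitory Fc receptor, 3.46-fold and Emr1 3.12-fold. In set 3 the same genes differed by -0.29, 0.33, 0.47 and 0.32 on the log2 scale. Aif1 was the gene highest in set 3, 1.66-fold above its untreated array, and was 2.29-fold lower in set 2. Spi1 differed by -0.57 in set 2, -0.55 in set 4 and -0.05 in set 3. No difference by set is given for Clec7a, which was at background on the untreated arrays of 3 sets.

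Of the variance of a gene within its groups, the sets held a median of 74.4% over the 25 genes (64.8% to 91.3%), against a median of 40.9% over all detected probes. Within the siRNA groups the medians were 96.1% and 51.6%. Whether the difference between siRNA and untreated itself differed between sets was tested with an interaction term added after the data were seen. The sets were formed from these same arrays, with 1 untreated array each. Both the shares and the p-values of this test take the sets as given and may overstate differences between them. Fcgr3 passed (adjusted p = 0.0436), 1 gene of the list among 6 of 46632 probes (0.0129%). At an unadjusted p under 0.05, 22 of the 25 genes stood against 8.55% of all probes. The number of genes of the list at an adjusted p under 0.05, 1 here, depended strongly on the processing. It was 19 without background correction (206 probes), 14 when only detected probes were tested (103 probes) and 0 after median centring (0 probes). It was also 0 whenever any 1 siRNA array was left out. The difference between both siRNAs varied with the set for 1 probe of all (0.00214%) and for no gene of the list.

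A longer list held 62 other myeloid genes, which took part in forming the sets, so their values by set are a description. Of its 48 detected genes none passed against untreated cultures. Their median difference between siRNA and untreated was -0.21, -0.52, 0.31 and -0.97 in sets 1 to 4, with 36, 45, 6 and 45 genes lower. Between 48.2% and 49.6% of all detected probes were lower in a set. Pf4, a platelet factor that macrophages also express, differed by -1.90 in set 4, P2ry6, a nucleotide receptor, by -1.05 and Selplg, the ligand of P-selectin, by -1.09. Between both siRNAs, Tlr4, the receptor of lipopolysaccharide, passed and was higher with the dystrophin siRNA by 0.64 ± 0.08 (SE). In that comparison 3.76% of all probes were called.

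Other cell types were read from their own lists. Medians of 10 detected muscle genes lay between -0.07 and 0.07 in the 4 sets and those of 9 endothelial genes between -0.17 and 0.00, with members on both sides. Between both siRNAs, where 3.76% of all probes were called, 3 of the muscle genes, Ckm, Tnnt3 and Cav3, were called lower with the dystrophin siRNA. In the same comparison 2 endothelial genes, Vwf and Flt1, were called higher. So were 1 gene of neutrophils and mast cells and 1 of T, NK and B cells, counted over genes with a probe. The T, NK and B cell list also had 1 gene called higher with the dystrophin siRNA against untreated cultures, where 0.907% of all probes were called. Both detected adipocyte genes, Adipoq and Pparg, had a mean of -0.69 in set 2 and of 0.93 in set 4, the opposite side of the macrophage genes in set 4. The 11 detected fibroblast genes had medians of -0.04, 0.04, -0.17 and -0.37, and the sets held a median of 75.3% of their variance within groups. Of 11 neutrophil and mast cell genes with a probe 6 were detected, with a median of 1.28 in set 3 and of -0.35 in set 4. Of 11 genes of T, NK and B cells 3 were detected and 7 were at background on every array. Of the growth factors and chemoattractants of myeloid cells, 5 of 9 were detected, and Ccl2 differed by 1.39 in set 1 and by -0.15, 0.13 and -0.34 in the others. The part of other cell types in the differences between sets was not tested. Probes detected per array numbered 17551 to 18122 outside set 3 and 18079 to 18530 in it.

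**Figure D5:**
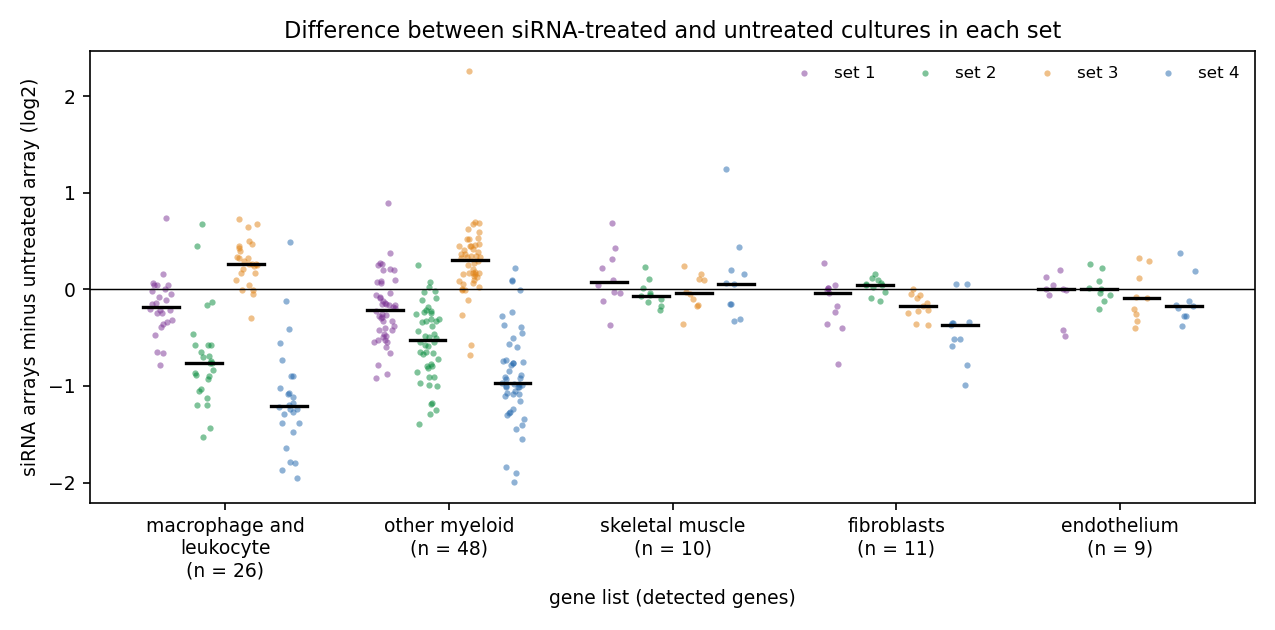
Difference in log2 level between the siRNA arrays and the untreated array of each set (y axis) for every detected gene of 5 lists (x axis), coloured by set, with black lines at the medians. The medians of the macrophage and leukocyte genes and of the other myeloid genes fall to -1.21 and -0.97 in set 4 and rise to 0.26 and 0.31 in set 3, while those of the muscle genes stay between -0.07 and 0.07.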

How the data were processed

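RNA of 18 cultures was hybridized to Illumina MouseWG-6 arrays, 1 array a culture. The authors deposited, from BeadStudio, the bead signal of each probe as intensity on a linear scale and its detection p-value. They also deposited intensity values after RMA-type background correction, log2 transformation and quantile normalization with lumi (version not given in the sources used here). Here the deposited signals were processed by the same steps in R 4.3.3, without a filter. These log2 values differed from the deposited ones by a median of 0.0025 and at most 0.022. All 18 arrays entered 1 fit by group in limma 3.58.1 (lmFit, eBayes), with Benjamini-Hochberg adjustment over 46632 probes and a threshold of 0.05. The fits were tested on simulated data with noise drawn independently for each array, which does not cover cultures that share their cells. Levels are normalized log2 values, and no probe's level was set against another's. The number of arrays limits the precision.

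Probes were named from GEO's platform annotation: 29976 had 1 gene, 10 several and 16646 none listed. The 37 genes and the other lists were chosen with earlier results of these data known. Values are given for the genes detected on at least 4 arrays, per array for genes called and for the brightest. In the other lists up to 4 examples with the smallest p for the dystrophin siRNA against untreated could be named. Fcgr3 was given by array after its values were seen. An exact permutation test planned for Csf1r was not run because it had no probe, and Cd300c was tested in its place. Replicate numbers were taken to pair the GL2 and dystrophin arrays, which the labels do not state. Same-numbered arrays of both siRNAs correlated at 0.339 to 0.51 in their deviations from the group means in all 7 pairs. GL2 array 4, however, correlated best with dystrophin array 5. The numbers were not taken to pair siRNA with untreated arrays, where some correlations were below 0. Alternatives were other background corrections, median centring, the authors' values, detected probes only, blocks, and leaving out arrays or sets. Figures were drawn with matplotlib 3.10.9.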

Additional observations from a re-analysis of the deposited data

Results flagged for a closer look

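Cd300c stood apart from the rest of the list because both siRNAs moved it in opposite directions against untreated cultures, and the direct test of that difference gave -2.81 on the log2 scale between the dystrophin and the GL2 siRNA (limma, adjusted p = 1.46e-08). Fcgr3 was the 1 gene of the list whose difference between siRNA and untreated passed the test of a difference between sets (adjusted p = 0.0436). The sets were formed from these same arrays, and the call was not kept when any siRNA array was left out.

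Among 78 groups of samples examined, 3 held a sample far from the others, and chance gives about 1 in 20. All 3 were in the untreated group. The level of Ctss was 6.04 in untreated replicate 3, where the nearest other value was 5.71. Cd300c was 6.20 in untreated replicate 1, with the nearest at 6.67, and Aif1 was 8.74 in untreated replicate 4, with the nearest at 8.45.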

How the results depend on the processing

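Of 1614 repeats of the differences of single genes against untreated cultures, 1594 kept their direction and their side of the threshold. Much of this share was fixed in advance. No gene but Cd300c was called, and leaving out arrays of the siRNA not compared cannot move a difference. Cd300c itself lost its call in 8 repeats for the dystrophin siRNA and in 1 for the GL2 siRNA. Probes called for the dystrophin siRNA against untreated (423) numbered 739 with a normexp background, 749 without background correction, 745 over detected probes, 267 with only the compared groups, 698 with the sets as a block, and 209, 138 and 201 without set 2, 3 and 4. For the GL2 siRNA against untreated (342) they numbered 839, 854, 828, 217 and 973 in the same order, 564 with the sets as a random block, and 166, 66 and 120 without set 1, 3 and 4. Between both siRNAs (1752) they numbered 2636 without background correction, 2706 over detected probes, 2735 with the sets as a block and 1076, 709 and 1015 without set 2, 3 and 4. Leaving out 1 array gave 247 to 465 for the dystrophin and 147 to 377 for the GL2 siRNA against untreated, with falls of over 1.5 times without any 1 untreated array for either and without GL2 replicate 4 or 7 for the GL2 siRNA. After median centring, 35.7% of the GL2 calls were higher, against 46.2%.

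With the replicate number as a block, 50 probes were called for the dystrophin siRNA and 1 for the GL2 siRNA against untreated, with 0 genes of the list in each. The fits against untreated held only arrays numbered 1 to 4 of each group. The numbers were taken to pair only the siRNA arrays, and between these the block changed no call of the list.

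For the dystrophin siRNA, 0 genes of the list passed with only the compared groups or without set 2 or 4, and 0 or 1 when 1 array was left out. With the sets as a block 2 passed for either siRNA against untreated, Cd300c and Mrc1. Without set 3, Mrc1 passed for the dystrophin siRNA (-1.41, adjusted p = 0.0352) and Cd300c did not (adjusted p = 0.114). For the GL2 siRNA 2 passed with a normexp background or without correction, Cd300c and Cd163, which was at background on every array. Differences against untreated changed sign, uncalled, for Fcgr2b (0.0079) and Clec4n (0.22) with the dystrophin siRNA and for Ctss (0.114), Tyrobp (0.113) and Aif1 (0.028) with the GL2 siRNA without set 4, for Aif1 (0.044) without set 2, and for Clec4n with the replicate block (0.033) and without 1 array (-0.30 to 0.0022, above 0 without dystrophin replicate 7). Between both siRNAs 18 of the 25 genes changed sign under at least 1 of 31 settings, none with a difference over 0.197, and none was called.

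The test of a difference between sets called 188 probes and 19 genes of the list with a normexp background, 206 and 19 without correction, 103 and 14 over detected probes, and 0 and 0 after median centring. It called 0 to 1 probes and 0 genes of the list without any 1 siRNA array. Untreated arrays were not left out there, since each set has 1. The difference between siRNA and untreated in sets 1 to 4 was -0.14, -0.59, 0.22 and -0.87 with a normexp background and -0.14, -0.58, 0.21 and -0.86 without correction. It was -0.22, -0.85 and 0.20 in sets 1 to 3 after median centring. Direction held in each set, and the causes were not tested. Leaving out sets and the test between sets were chosen after seeing the data.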
